A study of Mus musculus with 6 samples.

Results

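Expression of 9 genes of adrenergic and cAMP signalling was compared in CD11b+ brain cells of Cnr1+/+ mice and of Cnr1-/- mice, which lack the cannabinoid receptor CB1. The genes are the receptors Adrb1 and Adra2a, the stimulatory G protein gene Gnas, the adenylyl cyclase Adcy7, the phosphodiesterases Pde3b and Pde4b, the kinase subunit Prkaca, and the transcription factors Crem and Creb1. They were found by their gene symbol, and all 9 were among the 19225 genes listed. Male mice of 3 months were used, 3 labelled Cnr1+/+ (C57BL6/J, wt/wt) and 3 labelled Cnr1-/- (strain Cnr1 tm1Zim, d/d), and 1 library per mouse was made from the 3′ ends of polyadenylated RNA. The labels give this age, while the methods of the study name a lower one for its mice. The strain entries are those of the labels; by the methods both genotypes were littermates from a mutant line backcrossed to the wild-type strain. The mice had not been stressed. The knockout is constitutive, made by a neomycin cassette in the coding region of Cnr1, so all cells of these mice carry it throughout life. The cells were enriched with CD11b magnetic beads from whole brain without the cerebellum.

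Noradrenaline and adrenaline act on cells through adrenergic receptors. The beta receptors couple to the stimulatory G protein Gs, which activates adenylyl cyclases to make cAMP, whereas the alpha-2 receptors and the cannabinoid receptors couple to Gi, which inhibits them. cAMP releases the catalytic subunits of protein kinase A (PKA), which phosphorylate CREB and related factors, and phosphodiesterases end the signal by cleaving cAMP. In microglia, beta-adrenergic signalling is known for its influence on process motility and on inflammatory gene expression.

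Values are CPM, read counts scaled to a common library total, after the authors' TMM scaling between libraries. They are not divided by gene length, since the libraries read 3′ ends, and levels of different genes are not compared here. The value of 1 read lay between 0.0933 and 0.130 CPM. It implies library totals of 7708812 to 10723822 reads, which include the TMM scaling and are not the reads sequenced. The listed genes made up 50.1% to 59.1% of a library's scaled total. All 10 markers of microglia were listed, and they summed to 14680 to 17058 CPM under the label Cnr1+/+ and to 15808 to 16830 CPM under the label Cnr1-/-. For Cnr1 itself the listed value was 0 under the label Cnr1+/+ in all 3 libraries, and 1.41, 1.21 and 1.79 CPM under the label Cnr1-/-. These values run opposite to those that a loss of this RNA under the label Cnr1-/- would give. The cassette lies in the coding region and the reads come from 3′ ends, and the cause of these values was not tested. The genotype labels could thus not be checked with this gene, and directions below are those of the labels. The library labelled Cnr1-/- replicate 2 stood apart in blood cell markers: the 10 neutrophil markers summed to 4109 CPM there against 269 to 530 CPM in the other libraries, and the 7 erythrocyte markers to 2342 CPM against 136 to 237 CPM. The part of these cells in the results was not tested, and values without this library are given where they change a call.

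Of the 9 genes, 7 had a mean of at least 10 CPM and were tested with limma on log2 (CPM + 0.1) among 6659 genes. Adra2a and Crem lay below this minimum. Only Adrb1 of the 7 had a nominal p under 0.05, and it was higher in the libraries labelled Cnr1-/-. Over all tested genes, 401 or 6.02% had a nominal p under 0.05, of which 339 (5.09%) were higher and 62 (0.931%) were lower. The groups did not overlap for 3 of the 7 (Adrb1, Gnas and Pde3b), all higher in the libraries labelled Cnr1-/-. Of all tested genes, 11% did not overlap, with 589 higher and 142 lower. No gene of the 9 (0) had an adjusted p under 0.1 together with a fold change over 1.5, which 6 genes or 0.0901% of those tested had. All 7 log2 fold changes were above 0, as were 68.4% of those of all tested genes, with a median of 0.19 over the 7 genes and of 0.084 over all. The direction of the whole distribution depended on the scaling. After subtraction of each library's median, 5 of the 7 lay above 0, beside 52.0% of all tested genes. Of 375 genes with a nominal p under 0.05, 197 were higher and 178 lower. With quantile normalisation 163 were higher and 197 lower, and with rescaling without mitochondrially encoded genes 142 were higher and 212 lower. The medians over the 7 genes and over all were 0.11 and 0.0084 with centring, 0.099 and -0.0014 with quantile normalisation, and 0.088 and -0.016 with rescaling. The same number, 5, lay above 0 without replicate 1 labelled Cnr1+/+, beside 56.2% of all tested genes. It was 6 without replicate 2 or without replicate 3 labelled Cnr1-/-, beside 57.9% and 68.6%.

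**Figure D1:**
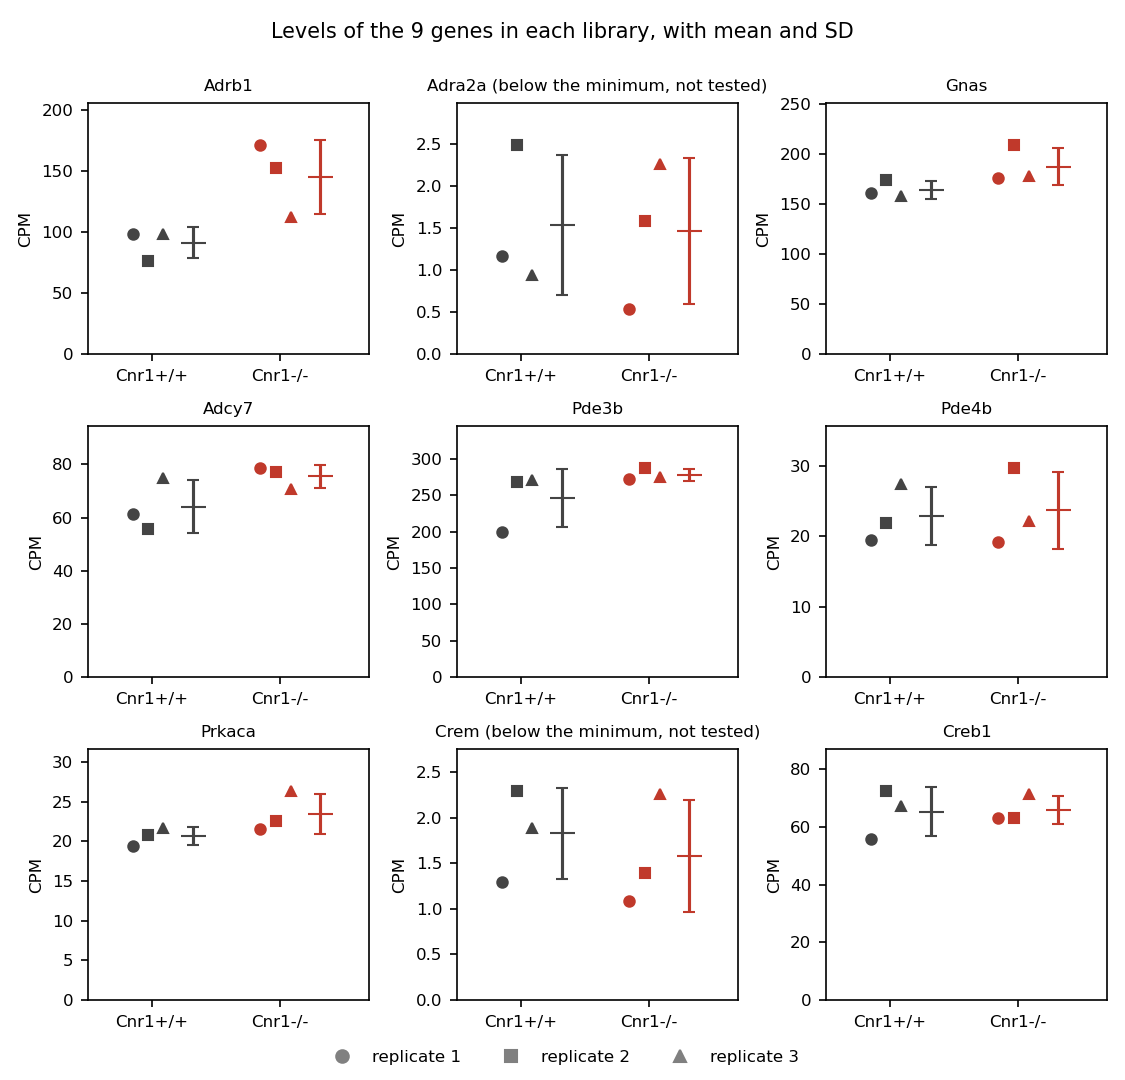
CPM of the 9 genes in each of the 6 libraries, with the genotype label on the horizontal axis and CPM on a linear vertical axis from 0; symbols mark the replicate, and the bar beside them is the mean with its SD (n = 3). Adrb1 is apart in its 3 libraries labelled Cnr1-/- (112 to 171 CPM against 76.3 to 98.8 CPM), while Pde4b and Creb1 overlap.

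The sequences before the transcription starts of the receptor genes are shown because PKA acts on transcription through CREB, which binds the cAMP response element TGACGTCA and its core TGACG. Windows of 250 bases before RefSeq starts (GRCm38.p6, the assembly of mm10) were examined for 7 of the 9 genes. Several genes have more than 1 start, which gave 16 windows. No window of Pde3b or Crem was examined, so the counts below say nothing about these genes. The full element was found on either strand in 0 of the 16 windows and in 1.55% of all 32851 windows. The core, which is also part of the full element, was found on either strand in 8 of the 16 windows and in 17.8% of all windows. The 8 windows belong to 6 genes, and 2 overlapping windows of Gnas hold the same site, so that the 9 matches lie at 8 positions. The median GC content was 59% over the 16 windows and 52.4% over all windows, and its part in the number of matches was not tested. A match describes these letters only. The start used for Adra2a lies inside the gene as the file lists it. In both receptor windows, at chr19:56721867-56722116 for Adrb1 and chr19:54045009-54045258 for Adra2a, plus strand of each, the core is in capitals and begins 90 bases before the start in Adrb1 and 69 bases before it in Adra2a:
Adrb1: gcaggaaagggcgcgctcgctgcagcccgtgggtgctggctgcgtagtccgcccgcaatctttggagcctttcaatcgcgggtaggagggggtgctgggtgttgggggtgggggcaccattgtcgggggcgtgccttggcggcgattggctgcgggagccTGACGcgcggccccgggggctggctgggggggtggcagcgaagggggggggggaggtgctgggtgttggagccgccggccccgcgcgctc
Adra2a: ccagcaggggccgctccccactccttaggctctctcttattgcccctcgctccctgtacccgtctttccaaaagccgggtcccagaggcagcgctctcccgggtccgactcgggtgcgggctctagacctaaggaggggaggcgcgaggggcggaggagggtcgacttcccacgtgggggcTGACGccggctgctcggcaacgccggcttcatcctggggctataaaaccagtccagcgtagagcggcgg

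Adrb1, which encodes the beta-1 adrenergic receptor, was higher in the libraries labelled Cnr1-/-. It lies on chromosome 19 of mm10 from 56722199 to 56733113 on the plus strand. Replicates 1, 2 and 3 labelled Cnr1+/+ had 98.7, 76.3 and 98.8 CPM, and those labelled Cnr1-/- had 171, 153 and 112 CPM. Every library labelled Cnr1-/- thus lay above every library labelled Cnr1+/+, with replicate 3 labelled Cnr1-/- nearest to the other group and replicate 2 labelled Cnr1+/+ farthest from it. These values rest on 761 to 1639 reads per library. The fold change was 1.58 with a 95% interval of 1.28 to 1.96, or a log2 fold change of 0.66 with a standard error of 0.15. The limma nominal p was 0.000159, the 8th smallest of the 6659, and the adjusted p was 0.132. The two-sided exact permutation p was 0.1, the smallest that 3 libraries against 3 allow. In bulk RNA such as this, fewer cells of a type and less RNA per cell cannot be told apart.

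The call of Adrb1 by adjusted p depended on the processing and on single libraries, while its direction and its nominal p under 0.05 held in all 16 alternatives. The limma adjusted p was 0.0671 without the minimum, 0.0767 with a minimum of 20 CPM and 0.0997 with voom on implied reads. With centring, quantile normalisation and rescaling it was 0.548, 0.604 and 0.642, and the fold change was under 1.5 with each of these scalings (log2 fold changes of 0.58, 0.57 and 0.56). Without trend in eBayes it was 0.825. Without replicate 3 labelled Cnr1-/-, whose value was nearest to the other group, the log2 fold change was 0.84 and the limma adjusted p 0.013. The adjusted p was also under 0.1 without replicate 1 labelled Cnr1+/+ (0.0595) and without replicate 3 labelled Cnr1+/+ (0.0799). Without replicate 1 labelled Cnr1-/- the log2 fold change was 0.53 with an adjusted p of 0.631, and without replicate 2 labelled Cnr1+/+ it was 0.54 with an adjusted p of 0.715. Without replicate 2 labelled Cnr1-/-, the library with blood cell markers, it was 0.61 with an adjusted p of 0.346. Of the 17 fits, 7 gave an adjusted p under 0.1, of which 3 left out a library, and each of these 7 also gave a fold change over 1.5.

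**Figure D2:**
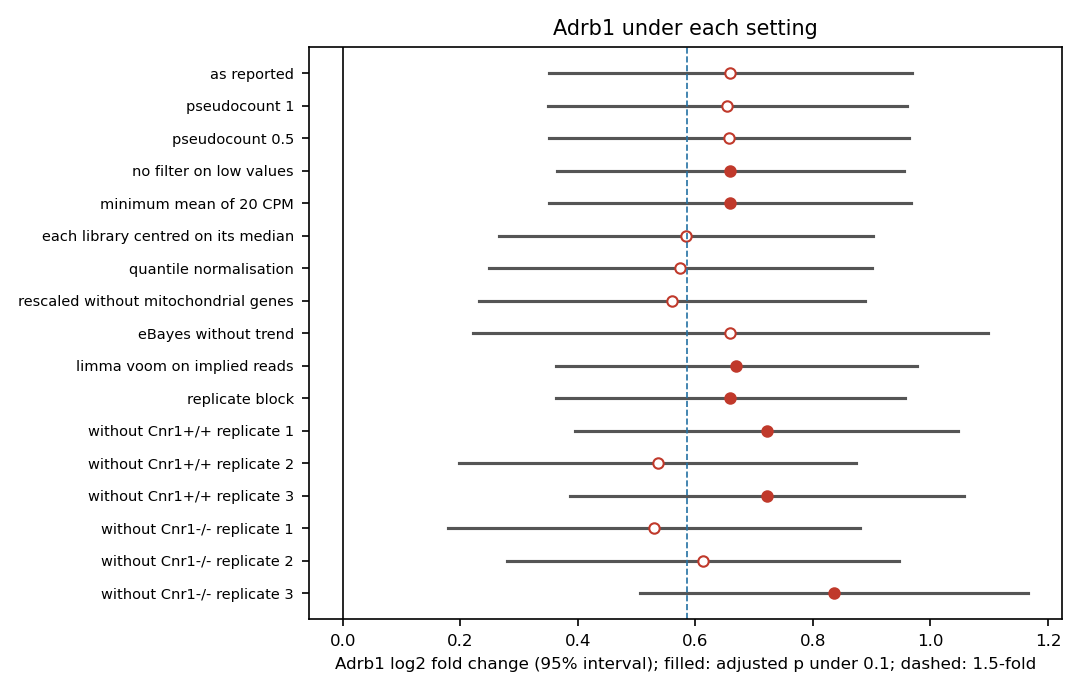
Log2 fold change of Adrb1 (labelled Cnr1-/- over Cnr1+/+) with its 95% interval, in the main fit here (marked as reported) and under each alternative. Filled points have an adjusted p under 0.1, and the dashed line is 1.5-fold. All 17 points are above 0, from 0.53 to 0.84, and 7 are filled.

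Adra2a, the alpha-2A receptor, lies on the same chromosome as Adrb1, from 54044151 to 54048982, 2.67 Mb before it. It had 1.17, 2.49 and 0.947 CPM (9, 25 and 9 reads) under the label Cnr1+/+ and 0.541, 1.59 and 2.27 CPM (5, 17 and 19 reads) under the label Cnr1-/-. The groups overlapped (two-sided exact permutation p = 0.9). Fitted without the minimum, its fold change had a 95% interval of 0.316 to 2.59, which does not exclude a change of 2-fold in either direction. Adra1a, Adra1b and Adra2c did not exceed 1.12 CPM in any library.

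Gnas encodes the alpha subunit of Gs. It lies on chromosome 2 from 174284320 to 174346744 and is transcribed from several starts into RNAs that share their 3′ exons, which a sum per gene does not separate. The values were 161, 174 and 158 CPM under the label Cnr1+/+ and 176, 209 and 178 CPM under the label Cnr1-/-. The groups did not overlap, although replicate 2 labelled Cnr1+/+ lay close below replicate 1 labelled Cnr1-/-. The fold change was 1.14 with a 95% interval of 0.957 to 1.36 (limma adjusted p = 0.885, exact permutation p = 0.1). On the log2 scale it went from 0.19 to 0.11 without replicate 2 labelled Cnr1-/-, its highest library and the one with blood cell markers, and to 0.11, 0.092 and 0.088 with centring, quantile normalisation and rescaling. Of 15 G protein subunit genes, 10 were tested and 0 had a nominal p under 0.05. Their median log2 fold change was 0.16, beside 0.084 over all tested genes. Gnai2, a Gi alpha subunit, had 533, 546 and 582 CPM under the label Cnr1+/+ and 562, 669 and 610 CPM under the label Cnr1-/-, which overlapped (log2 fold change 0.15, limma adjusted p = 0.900, exact permutation p = 0.2).

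Adcy7, an adenylyl cyclase of immune cells, lies on chromosome 8 from 88272403 to 88329962. The values were 61.4, 55.7 and 75.1 CPM under the label Cnr1+/+ and 78.7, 77.2 and 70.7 CPM under the label Cnr1-/-. The groups overlapped only because replicate 3 labelled Cnr1+/+ lay above replicate 3 labelled Cnr1-/-. The fold change was 1.19 with a 95% interval of 0.966 to 1.46 (limma adjusted p = 0.839, exact permutation p = 0.2). Without replicate 3 labelled Cnr1+/+, the log2 fold change was 0.37 and the limma nominal p 0.021, with an adjusted p of 0.474. Without replicate 2 labelled Cnr1+/+ the log2 fold change went from 0.25 to 0.15, and with quantile normalisation and rescaling to 0.14 and 0.15. Of the 10 adenylyl cyclase genes, 9 were listed and only Adcy9 passed the minimum beside Adcy7, and it gave -0.23 as log2 fold change (adjusted p = 0.941 with limma, exact permutation p = 0.3).

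None of the 6 tested phosphodiesterase genes had a nominal p under 0.05. Pde3b, which cleaves cAMP and is inhibited by cGMP, lies on chromosome 7 from 114415281 to 114539251. It had 199.9, 269 and 271 CPM under the label Cnr1+/+ and 272, 288 and 276 CPM under the label Cnr1-/-. The groups did not overlap, but replicates 2 and 3 labelled Cnr1+/+ lay close below the other group and replicate 1 far below it. The fold change was 1.14 with a 95% interval of 0.952 to 1.37 (limma adjusted p = 0.887, exact permutation p = 0.1), and without replicate 1 labelled Cnr1+/+ the log2 fold change went from 0.19 to 0.045. With centring, quantile normalisation and rescaling it was 0.11, 0.099 and 0.090.

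Pde4b, the cAMP-specific phosphodiesterase that is best known for its role in inflammatory cytokine production of myeloid cells, lies on chromosome 4 from 102087543 to 102607259, 68.1 Mb from Cnr1. It had 19.5, 21.8 and 27.4 CPM under the label Cnr1+/+ and 19.2, 29.7 and 22.2 CPM under the label Cnr1-/-. The range of the second group enclosed that of the first. The log2 fold change was 0.038 (limma adjusted p = 0.988, exact permutation p = 0.9). It turned to -0.038 with centring on library medians, to -0.072 without replicate 1 labelled Cnr1+/+ and to -0.14 without replicate 2 labelled Cnr1-/-. The 95% interval of the fold change was 0.764 to 1.38, which leaves out a change of 1.5-fold. The list held 16 cAMP phosphodiesterase genes, of which 13 were listed in the data. Pde1b, which is activated by calcium and calmodulin, had 24.9, 25.2 and 24.2 CPM under the label Cnr1+/+ and 29.4, 28.0 and 35.9 CPM under the label Cnr1-/-, which did not overlap (log2 fold change 0.32, limma adjusted p = 0.839, exact permutation p = 0.1).

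Prkaca encodes a catalytic subunit of PKA and lies on chromosome 8 from 83972993 to 83996443. The values were 19.5, 20.9 and 21.7 CPM under the label Cnr1+/+ and 21.5, 22.6 and 26.4 CPM under the label Cnr1-/-. The lowest library labelled Cnr1-/- lay just below the highest labelled Cnr1+/+. The fold change was 1.13 with a 95% interval of 0.860 to 1.49 (limma adjusted p = 0.933, exact permutation p = 0.2). On the log2 scale it went from 0.18 to 0.095 without replicate 3 labelled Cnr1-/-, its highest library, and to 0.105, 0.10 and 0.081 with centring, quantile normalisation and rescaling. Prkacb, the gene of the other main catalytic subunit, had 41.8, 45.9 and 41.4 CPM under the label Cnr1+/+ and 37.3, 40.2 and 28.0 CPM under the label Cnr1-/-, which did not overlap (log2 fold change -0.30, limma adjusted p = 0.839, exact permutation p = 0.1). Its nominal p was under 0.05 with each of the 3 other scalings and without replicate 2 labelled Cnr1-/-. Prkar1a, a regulatory subunit that holds the catalytic subunits inactive, gave 0.16 as log2 fold change (adjusted p = 0.900 with limma, exact permutation p = 0.2). Of 13 genes of PKA subunits, PKA inhibitors and other cAMP effectors, 7 were tested and 0 had a nominal p under 0.05. The same held for 5 tested of 10 A-kinase anchoring protein genes, which place PKA within the cell. Akap13 and Akap9 among them had log2 fold changes of 0.12 and 0.066.

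Creb1, the transcription factor phosphorylated by PKA, lies on chromosome 1 from 64532645 to 64604548. It had 55.9, 72.4 and 67.2 CPM under the label Cnr1+/+ and 63.0, 63.1 and 71.4 CPM under the label Cnr1-/-. The values of the second group lay within the range of the first. The log2 fold change was 0.021, with a 95% interval of the fold change of 0.825 to 1.25 (limma adjusted p = 0.991, exact permutation p = 1). It turned to -0.055 with centring, to -0.086 without replicate 1 labelled Cnr1+/+ and to -0.039 without replicate 3 labelled Cnr1-/-. Crem, which encodes activators and cAMP-inducible repressors of the same family, lies on chromosome 18 from 3266048 to 3337748 on the minus strand. It had 1.30, 2.29 and 1.89 CPM (10, 23 and 18 reads) under the label Cnr1+/+ and 1.08, 1.40 and 2.27 CPM (10, 15 and 19 reads) under the label Cnr1-/-. The groups overlapped (two-sided exact permutation p = 0.7), and the fold change fitted without the minimum had a 95% interval of 0.335 to 2.19. Of 11 genes of the CREB family, its coactivators and the kinases that restrain them, 6 were tested and 0 had a nominal p under 0.05. The coactivators Crebbp and Ep300 had log2 fold changes of -0.037 and 0.14.

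Over 131 genes of the pathway, the 9 included, 118 were listed and 56 were tested. Of these, 3 (Adrb1, Arrb1 and Per1) had a nominal p under 0.05, all higher in the libraries labelled Cnr1-/-, against a share of 6.02% over all genes. The median log2 fold change was 0.14, and 44 of the 56 lay above 0, beside 68.4% of all tested genes. With centring 36 did, beside 52.0%, with quantile normalisation 35, beside 49.7%, and with rescaling 34, beside 46.2%. The groups did not overlap for 10 of the 56, of which 9 were higher and 1 lower. The share over all tested genes was 11%, with 589 higher and 142 lower. Without the minimum, 118 genes were fitted and the count was 9, beside 5.17% of all genes in that fit. It was 8 of 56 without replicate 3 labelled Cnr1+/+, beside 9.07% of all genes, 7 of 55 without replicate 3 labelled Cnr1-/-, beside 4.74%, and 5 of 56 without replicate 2 labelled Cnr1+/+, beside 5.52%.

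Arrb1 encodes beta-arrestin 1, which binds phosphorylated receptors and uncouples them from their G proteins. It had 35.7, 49.3 and 46.5 CPM under the label Cnr1+/+ and 58.5, 57.2 and 59.1 CPM under the label Cnr1-/-, and the groups did not overlap. The log2 fold change was 0.42 with a standard error of 0.16 (limma nominal p = 0.0116, adjusted p = 0.702, exact permutation p = 0.1). Without replicate 1 labelled Cnr1+/+, its lowest library, the log2 fold change was 0.28 and the nominal p 0.0752. Of 13 genes of receptor desensitisation, 9 were tested and Arrb1 was the only 1 with a nominal p under 0.05. Arrb2, its homologue, had 307, 263 and 331 CPM under the label Cnr1+/+ and 308, 383 and 329 CPM under the label Cnr1-/-, which overlapped (log2 fold change 0.18, limma adjusted p = 0.892, exact permutation p = 0.3). Rgs2, which shortens G protein signals, gave 0.069 as log2 fold change (adjusted p = 0.954 with limma, exact permutation p = 0.6).

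Per1, a clock gene whose promoter responds to cAMP and to glucocorticoids, had 9.47, 10.4 and 10.9 CPM under the label Cnr1+/+. Replicates 1 and 2 labelled Cnr1-/- had 22.3 and 21.9 CPM, but replicate 3 had 10.4 CPM and lay within the other group. The log2 fold change was 0.74 with a standard error of 0.28 (limma nominal p = 0.0123, adjusted p = 0.705, exact permutation p = 0.3). Without replicate 1 or without replicate 2 labelled Cnr1-/- the nominal p was 0.1 and 0.0818, and without replicate 3 the log2 fold change was 1.10 with an adjusted p of 0.0906. Of 19 genes that cAMP induces, 17 were listed, 5 were tested and 1 had a nominal p under 0.05. Junb, an immediate early gene, gave 0.16 as log2 fold change (adjusted p = 0.910 with limma, exact permutation p = 0.2).

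Among other receptors that couple to Gs, 7 of 8 genes were listed and 0 passed the minimum. Hrh2, the histamine H2 receptor, had 10.4, 9.08 and 7.68 CPM under the label Cnr1+/+ and 9.96, 10.5 and 9.78 CPM under the label Cnr1-/-. Vipr1, a receptor for vasoactive intestinal peptide, lay between 1.67 and 5.41 CPM. Of 12 receptor genes that couple to Gi, 6 were tested, 0 had a nominal p under 0.05, and the median log2 fold change was -0.019. Cx3cr1, the fractalkine receptor of microglia, and P2ry12, their ADP receptor, had log2 fold changes of -0.0077 and -0.0058 (limma adjusted p = 0.995 for each).

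**Figure D3:**
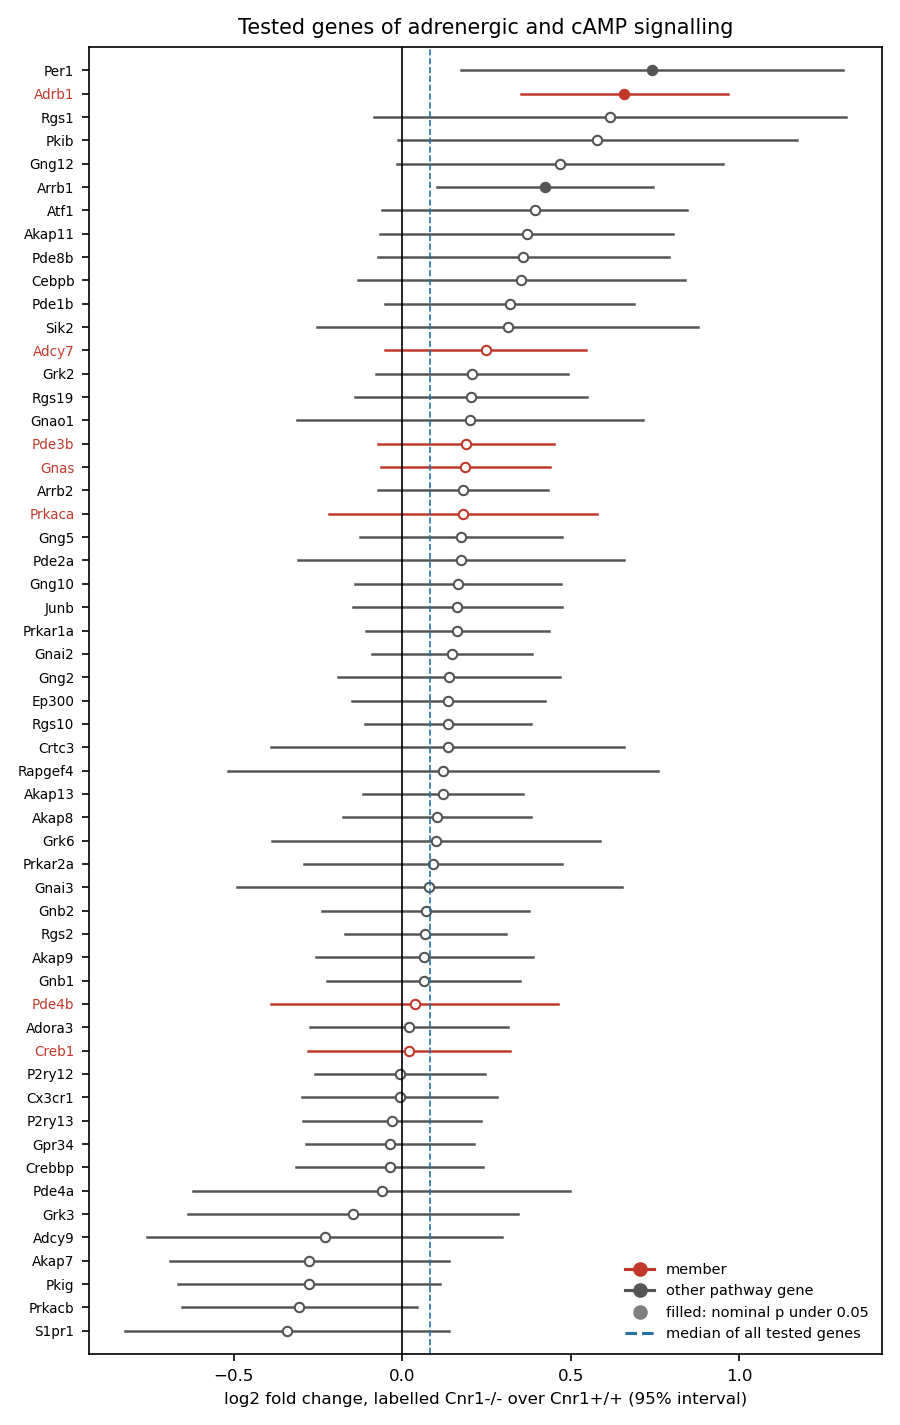
Log2 fold change (labelled Cnr1-/- over Cnr1+/+) with its 95% interval for 55 of the tested genes of the pathway, in order of size, with the 7 tested members in red; filled points have a nominal p under 0.05, and the dashed line is the median of all tested genes (0.084). Adrb1, Arrb1 and Per1 are the 3 filled points.

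The 5 tested genes whose pattern over the 6 libraries was most like that of Adrb1 were Gng12, Smpd5, Lta4h, Ctu2 and Fbxw2. Likeness was measured as the root mean square difference of log2 (CPM + 0.1) after each gene's mean was subtracted, and it lay between 0.12 and 0.16 for these genes. Gng12, a G protein gamma subunit that is also among the pathway lists and the nearest, had 14.4, 11.3 and 12.8 CPM under the label Cnr1+/+ and 20.1, 19.6 and 14.1 CPM under the label Cnr1-/-, and like Adrb1 it was lowest in replicate 2 labelled Cnr1+/+ and highest in replicate 1 labelled Cnr1-/-. Its groups overlapped, whereas those of the other 4 did not. Since these genes were chosen by their likeness to Adrb1, no test is given for them. Lta4h, the leukotriene A4 hydrolase, had 8.56, 7.08 and 9.04 CPM under the label Cnr1+/+ and 14.8, 17.6 and 11.3 CPM under the label Cnr1-/-. Of the other 6 tested members, Adcy7 was the nearest, at rank 165 of 6658 with a difference of 0.26, and Creb1 the farthest, at rank 4457 with 0.46.

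**Figure D4:**
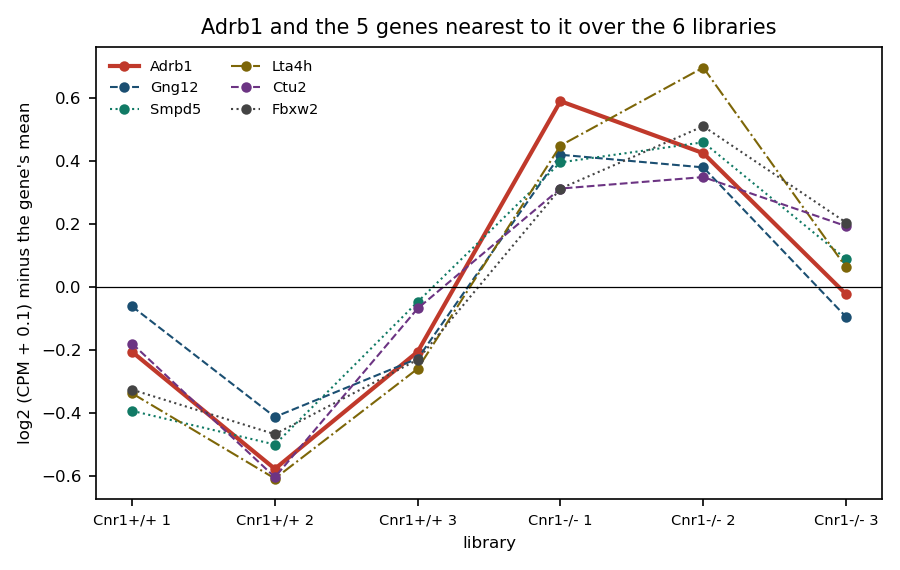
Log2 (CPM + 0.1) minus each gene's own mean in the 6 libraries for Adrb1 (thick red line) and the 5 genes nearest to it. All 6 genes are lowest in replicate 2 labelled Cnr1+/+, and within the libraries labelled Cnr1-/- all are lowest in replicate 3.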

How the data were processed

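Per the study's methods, the authors trimmed the QuantSeq 3′ reads, aligned them to mm10 with STAR, counted them per gene with Partek E/M against Ensembl transcripts and applied TMM normalisation. The deposited values are CPM after that scaling. Genotypes are those of the labels. Only 83.4% to 85.5% of values equalled a whole number of reads (within 0.02 reads), so no count model was the main test. Genotypes were compared by limma 3.58.1 (R 4.3.3; lmFit, then eBayes with trend) on log2 (CPM + 0.1), for genes averaging 10 CPM or more. The model held genotype alone, and p-values were adjusted by Benjamini-Hochberg over all 6659 genes tested. A nominal p under 0.05, and an adjusted p under 0.1 with over 1.5-fold, were used as thresholds. For single genes, exact permutation tests (two-sided, 10 splits) are given. Other p-values are those of limma and set the difference between the groups against the spread within them. In the main fit that spread is drawn towards a trend over all tested genes. The fit was tested on simulated data. Coordinates are those of the file, with ends set 1 base lower to match GENCODE vM21; promoter windows are from RefSeq. Genes named are the 9 members, listed adrenergic receptors, Cnr1, pathway genes with a nominal p under 0.05 or among the 2 of each list with the highest mean, and the 5 genes nearest to Adrb1. Of the genes this rule names, 1 is not reported here. The members and lists were chosen with earlier results of these data known. The study named Adrb1 from these libraries. With its own fit, it gave Adrb1 as higher, at an adjusted p under 0.1 and over 1.5-fold.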

Additional observations from a re-analysis of the deposited data

How the results depend on the processing

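Alternatives were pseudocounts of 1 and 0.5, no minimum mean or one of 20 CPM, and 3 other scalings: centring on library medians, quantile normalisation, and rescaling of the listed genes other than mitochondrial ones. A fit with no trend in eBayes, limma voom on implied reads, a replicate block and fits that omit 1 library were also run. Adrb1 kept its direction and a nominal p under 0.05 in all 16, with log2 fold changes of 0.53 to 0.84 when a library was left out and 0.56 to 0.67 otherwise, and limma adjusted p of 0.013 to 0.715 and 0.0671 to 0.825. The log2 fold change of Pde4b turned to -0.038 with centring, -0.033 with quantile normalisation and -0.061 with rescaling, and that of Creb1 to -0.055, -0.068 and -0.079; with a library left out they ranged from -0.14 to 0.18 and from -0.086 to 0.10. Gnas, Adcy7, Pde3b and Prkaca kept their direction in every alternative, and only Adcy7, in 1 of them, passed a nominal p under 0.05.

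Of the members, 1 to 2 had a nominal p under 0.05 when a library was left out. Of the pathway genes, 3 to 8 had, against 9 without a minimum, 5 with rescaling and 5 without trend. Over all tested genes, 251 (without replicate 2 labelled Cnr1-/-) to 600 (without replicate 3 labelled Cnr1+/+) had when a library was left out, 993 without a minimum and 263 at 20 CPM, where fewer genes were tested. The count at an adjusted p under 0.1 and 1.5-fold was 1 (without replicate 2 labelled Cnr1+/+) to 24 (without replicate 3 labelled Cnr1-/-) when a library was left out, with 14 and 16 without replicates 1 and 3 labelled Cnr1+/+, 14 without a minimum, and 0 with centring, quantile normalisation, rescaling and without trend, where 375, 360, 354 and 391 genes had a nominal p under 0.05; the cause was not tested. The libraries share only replicate numbers, whose deviations correlated at -0.056, -0.032 and -0.031 across genes; with the replicate block the adjusted p of Adrb1 was 0.0752, 421 genes had a nominal p under 0.05, and 3 pathway genes had. For Adra2a and Crem, with 5 to 25 reads per library, depth limits what can be detected.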

Other observations

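Of the 62 listed pathway genes below the minimum of 10 CPM, 5 had a nominal p under 0.05 when fitted without it (8.06%), Cnr1 among them, beside 556 of all 12566 genes below the minimum (4.42%). The other 4 were chosen after their values were seen. Sik3, a salt-inducible kinase that PKA inhibits and that holds the CREB coactivators in the cytoplasm, had 4.67, 5.59 and 4.00 CPM under the label Cnr1+/+ and 11.4, 8.67 and 9.78 CPM under the label Cnr1-/-, so every library of the second group lay above the first. Its log2 fold change was 1.05 with a standard error of 0.33 (limma nominal p = 0.00261, adjusted p = 0.576, exact permutation p = 0.1). Gnb5, a G protein beta subunit, had 1.43, 1.5 and 0.631 CPM against 1.84, 4.20 and 3.82 CPM, which did not overlap (log2 fold change 1.40, limma adjusted p = 0.932, exact permutation p = 0.1). Pde11a, a phosphodiesterase that cleaves both cAMP and cGMP, had 13.4, 11.1 and 7.78 CPM against 8.44, 6.43 and 4.53 CPM, which overlapped (log2 fold change -0.73, limma adjusted p = 0.892, exact permutation p = 0.2). Rgs18, a regulator of G protein signalling, did not exceed 2.14 CPM in any library (log2 fold change 2.02, limma adjusted p = 0.954, exact permutation p = 0.2). The size of its fold change depends on the pseudocount. Rgs18 and Gnb5 were both highest in replicate 2 labelled Cnr1-/-, the library with blood cell markers. Neither was fitted without that library.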
